A study of Mus musculus with 46 samples.

Results

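The genes described here encode the nuclear part of the mitochondrial respiratory chain and ATP synthase, followed through 5 groups of sorted mouse microglia. They were taken by name from the table of raw read counts: every symbol beginning with Nduf followed by a, b, c, s or v, the symbols Sdha to Sdhd, and every symbol beginning with Uqcr, Cox4 to Cox8 or Atp5. The rule found 94 of the 20999 genes in the table. They fell into 37 subunits of complex I, 8 complex I assembly factors (the Ndufaf genes), 4 subunits of complex II, 8 of complex III, 20 of complex IV and 17 of the ATP synthase. Ndufa4 and Ndufa4l2, named as complex I genes, were counted with complex IV, where the Ndufa4 protein is known to sit.

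Oxidative phosphorylation is the last stage of the cell's aerobic energy supply. Complexes I and II pass electrons from NADH and succinate to ubiquinone, complex III passes them to cytochrome c, and complex IV reduces oxygen. Complexes I, III and IV pump protons across the inner mitochondrial membrane, and the ATP synthase uses the returning protons to make ATP. A few core subunits are encoded by mitochondrial DNA; the table held 0 rows on the mitochondrial chromosome, so those subunits were not analysed here. Microglia, the resident macrophages of the brain, are known to use both oxidative phosphorylation and glycolysis.

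The RNA came from 10 libraries, 2 for each group, each from microglia sorted after staining for CD11b, CD45 and CD44, from male C57BL/6 mice. The adult group was labelled Ki67-negative and came from wild-type (WT) mice aged 90 days with no treatment. The other 4 groups came from Ki67-rfp reporter mice and were sorted as Ki67-negative or Ki67-positive cells, Ki67 being a protein of dividing cells. A pair of groups came from untreated mice at postnatal day 8 (PND8), when microglia multiply as the brain grows. The other pair came from mice aged 75 days that had eaten a PLX5622 diet from day 55 for 17 days and had then recovered for 3 days. PLX5622 is an inhibitor of the CSF1 receptor that depletes microglia, and those that return are called repopulating microglia here. The adult group therefore differed from the other 4 in genotype as well as in age or treatment, and the directory code in the file headers was also its own. These differences cannot be told apart from the group. The series also held lists of peaks from chromatin assays, all labelled WT and male. H3K27ac, a histone mark of active regulatory regions, had 2 libraries for each of 6 groups: adult (60 and 65 days), both Ki67 sorts at PND8, both sorts at 90 days after 4 weeks of cuprizone (an agent that strips myelin), and repopulating Ki67-positive cells at 90 days, with PLX5622 from day 70. H3K4me3, a mark of promoters, had 2 adult libraries (75 days). Rpb2, part of RNA polymerase II, had 2 adult libraries (60 and 65 days) and 1 of PND8 Ki67-positive cells. ATAC-seq, which reads open chromatin, had 1 library each of adult (80 days), PND8 Ki67-positive and repopulating Ki67-positive cells (75 days), and the titles of the last pair name the reporter line where the genotype field says WT.

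Total counts ran from 6865903 to 10287876 per RNA library. Mki67, the gene of the sort, had 13.4 and 11 CPM (its share of the counts, scaled to the same total in every library) in the adult libraries, 242 to 463 in the 4 libraries labelled Ki67-negative from PND8 and repopulating mice, and 920 to 1107 in the 4 labelled Ki67-positive. The 10 microglia markers on a fixed list (Csf1r, Cx3cr1, P2ry12 and others) summed to between 6862 and 8867 CPM in each library. Markers of other cells differed between groups. The 6 border macrophage markers summed to 602 to 853 CPM at PND8, most of it Mrc1, against 63.5 and 77.5 in adult and 26.1 to 42.9 in repopulating libraries, where Lyve1 was at 0. The 7 monocyte or neutrophil markers summed to 227 and 68.7 CPM in the adult libraries and 3.49 to 9.26 elsewhere. The 5 erythroid markers reached 23.1 to 75.4 CPM at PND8 and at most 7.21 elsewhere. The 6 astrocyte markers ran from 53.6 to 565 CPM, of which Slc1a3 gave 38.7 and 552 in the lowest and highest library, and Gfap was at most 4.1. The 6 lymphocyte markers summed to at most 1.21 CPM. The part of these cells in the results below was not tested.

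Counts were compared with edgeR's quasi-likelihood test over 12230 genes with enough counts, and a change was called at a Benjamini-Hochberg adjusted p under 0.05. Of the 94 genes, 87 passed the filter. The other 7 (Atp5l, Ndufb4c, Cox4i2, Cox7b2, Cox8b, Cox8c and Ndufa4l2) had almost no counts. Values after a ± sign are standard errors of a log2 fold change with 2 libraries a group, worked back from the test statistic. All 5 groups share the estimate of spread behind them, so they do not show the spread of the compared libraries alone. Where 4 values follow each other, they are PND8 Ki67-negative, PND8 Ki67-positive, repopulating Ki67-negative and repopulating Ki67-positive cells against adult, in that order, and these 4 comparisons share the same 2 adult libraries.

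In each of the 4 groups, at least 49 of the 87 respiratory chain genes rose against adult microglia. At PND8, 58 of the 87 rose and 2 fell in Ki67-negative cells, where 46.8% of all tested genes were called and 25.4% were higher, and 67 rose and 2 fell in Ki67-positive cells, where 49.5% were called and 25.1% were higher. In repopulating mice 49 rose and 1 fell in Ki67-negative cells (39.2% of all genes called, 21.5% higher), and 64 rose and 1 fell in Ki67-positive cells (44.9% called, 23.9% higher). The median log2 fold change of the 87 genes was 0.61, 0.70, 0.46 and 0.77, against medians over all tested genes of 0.03, 0.00, -0.01 and -0.01. With a trend on transcript length removed from each library (an alternative chosen after the data were seen and described with the lengths), the 87 genes had medians of 0.30, 0.41, 0.25 and 0.39. Together the 94 genes took 0.276% and 0.28% of the counts of the adult libraries, 0.380% and 0.458% of PND8 Ki67-negative, 0.438% and 0.452% of PND8 Ki67-positive, 0.348% and 0.378% of repopulating Ki67-negative, and 0.411% and 0.454% of repopulating Ki67-positive libraries. Both adult libraries were thus the lowest, with no overlap with any other group. RNA of bulk samples cannot tell fewer cells of a type from less RNA per cell. The libraries of the group did not overlap those of adult, lying above for 69, 78, 65 and 79 of the 87 genes and below for 2, 3, 4 and 2. All libraries above were seen for 38.1%, 39.2%, 36.5% and 38.3% of all tested genes, and all libraries below for 33.9%, 39.5%, 37.3% and 38.7%. The count in repopulating Ki67-negative cells was the least firm: 30 genes were called without replicate 2 of that group.

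**Figure D1:**
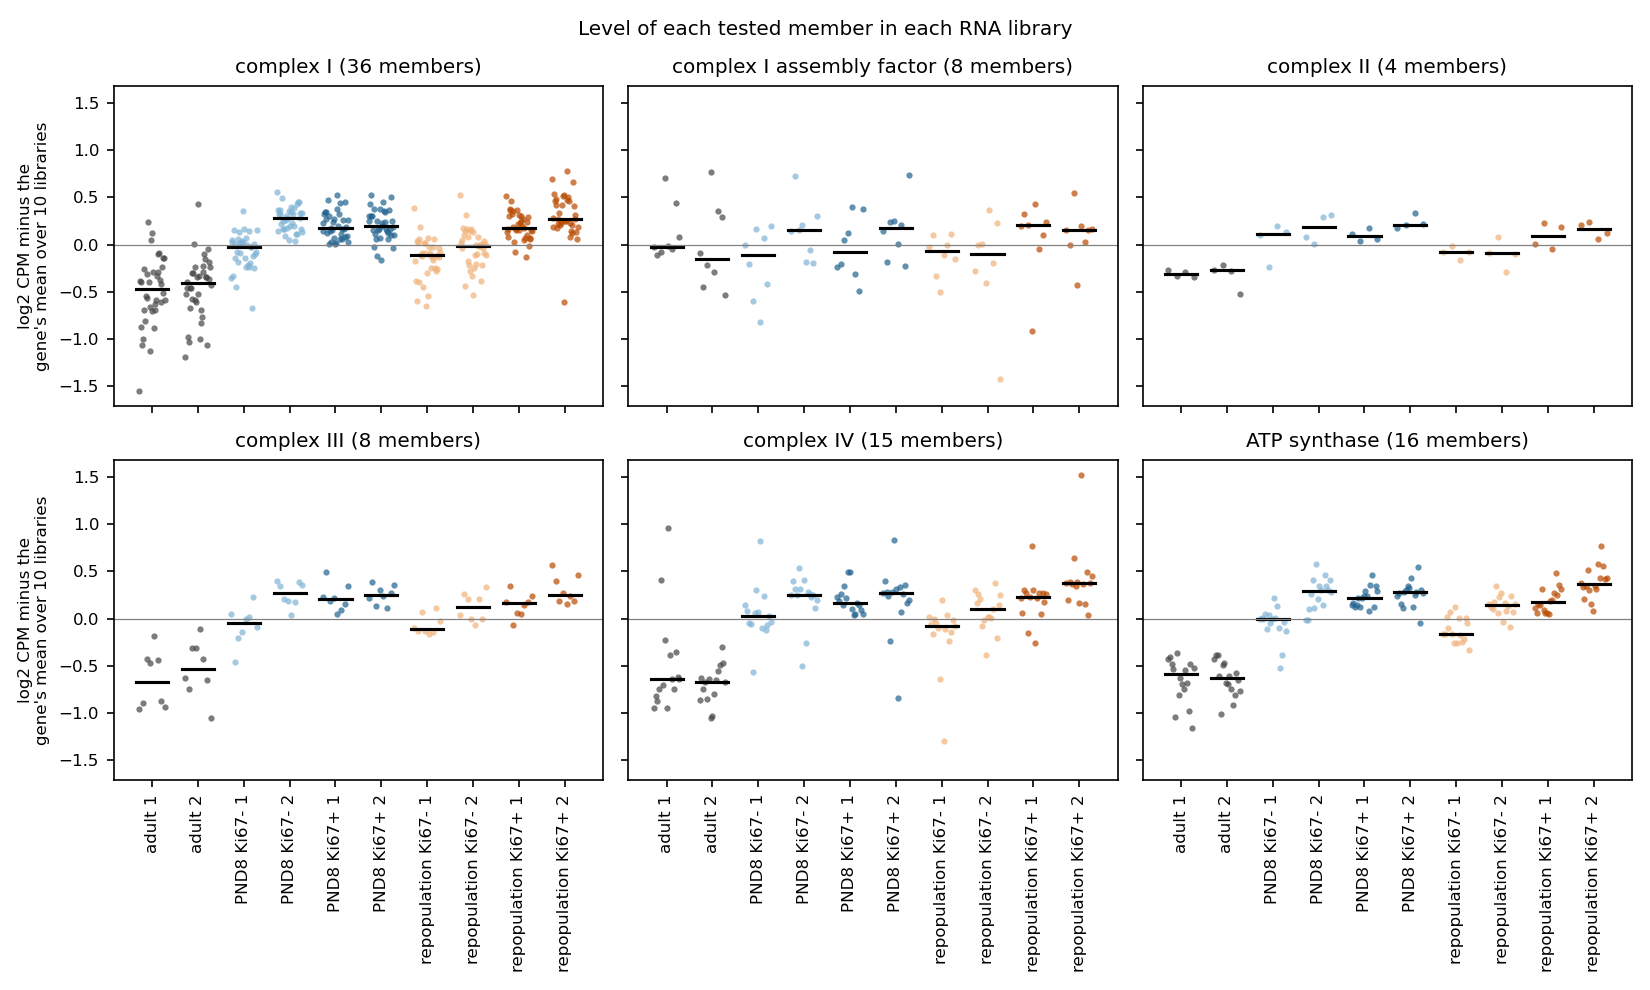
Each point is 1 of the 87 tested genes in 1 RNA library, as log2 CPM minus that gene's mean over the 10 libraries, with a panel per complex and a black bar at the median. The adult libraries sit lowest in every panel but that of the assembly factors; for the ATP synthase their medians are -0.59 and -0.63, and those of the other 8 libraries lie between -0.16 and 0.37.

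By complex, the called rises were 15, 15, 14 and 16 of 16 tested ATP synthase genes, 6, 8, 7 and 7 of 8 complex III genes, 11, 12, 10 and 12 of 15 complex IV genes, 3, 4, 2 and 4 of 4 complex II genes and 23, 28, 16 and 25 of 36 complex I genes. None of the 8 assembly factors rose. The median log2 fold change was 0.79, 0.89, 0.62 and 0.91 for the ATP synthase, and 0.57, 0.69, 0.35 and 0.73 for complex I. It was -0.09, 0.05, -0.14 and 0.33 for the assembly factors. The differences between complexes were not tested.

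**Figure D2:**
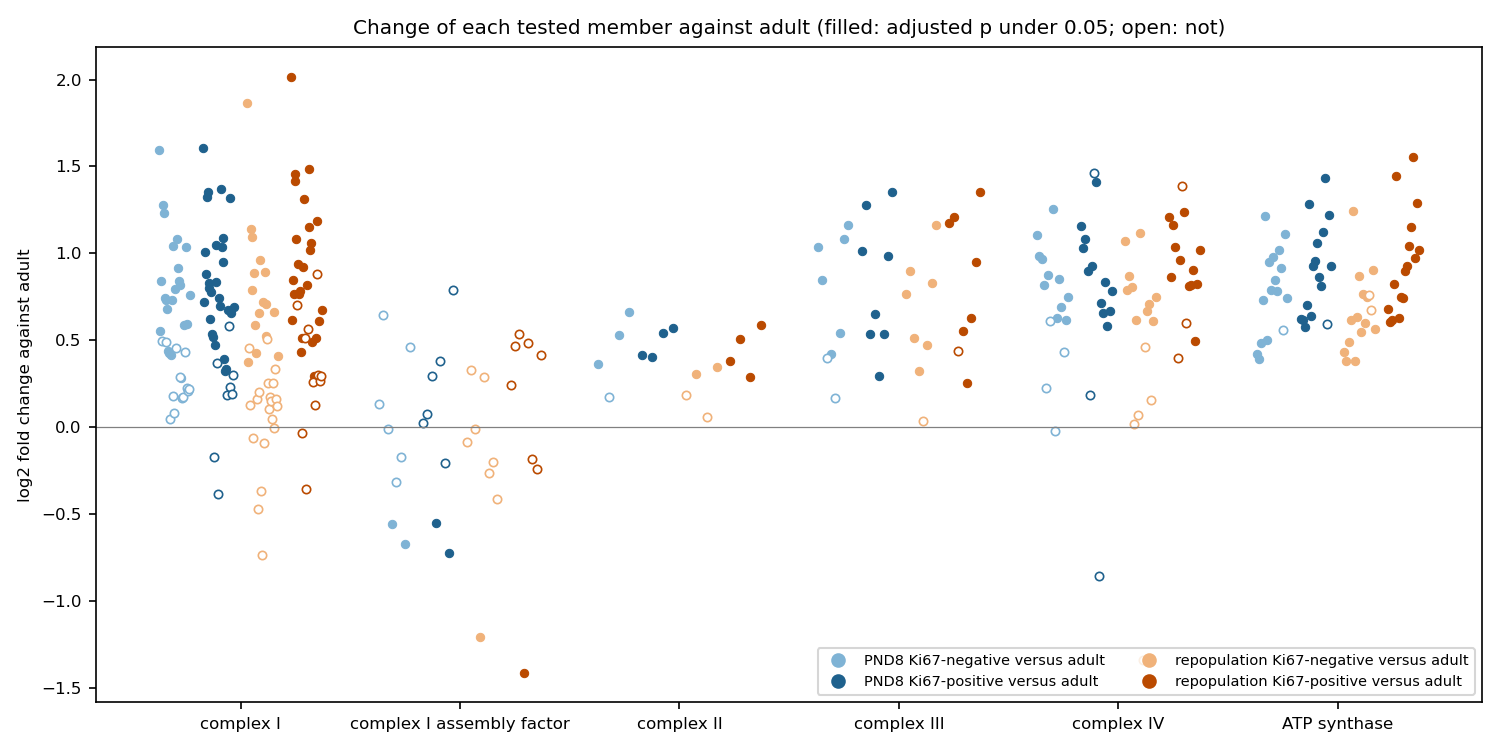
Log2 fold change against adult of each tested gene, by complex (horizontal axis) and comparison (colour); filled points have an adjusted p under 0.05 and open points do not. ATP synthase genes lie between 0.38 and 1.56 in all 4 comparisons, while the assembly factors lie on both sides of 0, with Ndufaf4 at -1.41 the lowest.

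Ndufa1, a small membrane subunit of complex I that is needed to assemble it, had the largest rise of the 87 genes in all 4 comparisons with adult. It lies on chromosome X (chrX:37187589-37191238, minus strand, mm10). The 250 bases before its start are shown because they belong to the gene with the largest change. Capitals mark the single match, on the other strand, to the SP1 letters GGGCGG, and the window (chrX:37191239-37191488, minus strand, GRCm38.p6) is from RefSeq.
Ndufa1: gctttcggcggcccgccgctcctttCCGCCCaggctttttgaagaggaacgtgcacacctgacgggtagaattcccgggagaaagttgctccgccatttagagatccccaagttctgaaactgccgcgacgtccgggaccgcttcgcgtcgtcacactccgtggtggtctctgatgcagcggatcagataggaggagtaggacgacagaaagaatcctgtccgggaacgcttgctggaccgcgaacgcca
Ndufa1 had 4.63 and 5.99 CPM in the adult, 10.9 and 20.7 in the PND8 Ki67-negative, 15.5 and 16.8 in the PND8 Ki67-positive, 18.4 and 20.3 in the repopulating Ki67-negative and 20.1 and 22.9 in the repopulating Ki67-positive libraries. All 8 libraries of the other groups were above both adult libraries, and the lowest of them was PND8 Ki67-negative replicate 1. The log2 fold changes were 1.59 ± 0.28 (adjusted p = 0.000526), 1.60 ± 0.29 (adjusted p = 0.000443), 1.86 ± 0.28 (adjusted p = 0.000204) and 2.02 ± 0.28 (adjusted p = 7.3e-05). Between Ki67-positive and Ki67-negative cells the gene differed by 0.01 ± 0.25 (adjusted p = 0.991) at PND8 and by 0.15 ± 0.25 (adjusted p = 0.831) in repopulating mice, neither past the threshold.

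Ndufa13 and Ndufb7 also rose in all 4 comparisons. Ndufa13, an accessory subunit in the membrane arm also known as GRIM-19, had 17 and 18 CPM in the adult, 39.9 and 44.9 in the PND8 Ki67-negative, 43.3 and 44.2 in the PND8 Ki67-positive, 36.7 and 40.4 in the repopulating Ki67-negative and 44.1 and 49.2 in the repopulating Ki67-positive libraries. Its log2 fold changes were 1.28 ± 0.13, 1.32 ± 0.13, 1.14 ± 0.13 and 1.41 ± 0.13, with adjusted p-values of 4.54e-06, 2.68e-06, 1.85e-05 and 1.72e-06. Ndufb7, another accessory subunit of the membrane arm, had 11.9 and 11 CPM in the adult, 18.8 and 29.4 in the PND8 Ki67-negative, 28.9 and 30.4 in the PND8 Ki67-positive, 21.9 and 20.6 in the repopulating Ki67-negative and 26.5 and 38.1 in the repopulating Ki67-positive libraries. Its log2 fold changes were 1.08 ± 0.23, 1.37 ± 0.23, 0.89 ± 0.23 and 1.49 ± 0.23, with adjusted p-values of 0.00171, 0.000244, 0.00834 and 0.000147. For both genes every library of the 4 groups was above both adult libraries.

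Ndufs1, Ndufv1 and Ndufs3, core subunits of complex I, had small fold changes. Ndufs1, an iron-sulfur subunit of the NADH-oxidising arm, had 76.9 and 67.2 CPM in the adult, 91 and 84.6 in the PND8 Ki67-negative, 89.2 and 90.9 in the PND8 Ki67-positive, 73.4 and 81.7 in the repopulating Ki67-negative and 85.6 and 87.1 in the repopulating Ki67-positive libraries. It rose at PND8, by 0.28 ± 0.10 (adjusted p = 0.0348) and 0.32 ± 0.10 (adjusted p = 0.0181), and its other differences from adult were 0.10 ± 0.10 (adjusted p = 0.46) and 0.26 ± 0.10 (adjusted p = 0.0529). Ndufv1, which binds NADH and flavin, had 55.9 and 53.9 CPM in the adult, 57.4 and 68.8 in the PND8 Ki67-negative, 65.4 and 59.9 in the PND8 Ki67-positive, 59.7 and 63.2 in the repopulating Ki67-negative and 64.2 and 67.6 in the repopulating Ki67-positive libraries. None of its differences from adult passed the threshold, and they were 0.20 ± 0.11, 0.19 ± 0.11, 0.16 ± 0.11 and 0.26 ± 0.11. Ndufs3, of the arm that reduces ubiquinone, had 27.6 and 26.4 CPM in the adult, 29 and 31.8 in the PND8 Ki67-negative, 30.6 and 30.7 in the PND8 Ki67-positive, 30.7 and 29.1 in the repopulating Ki67-negative and 26.9 and 32.1 in the repopulating Ki67-positive libraries. Its differences from adult were 0.17 ± 0.14, 0.18 ± 0.14, 0.15 ± 0.14 and 0.12 ± 0.14, none called.

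A few accessory subunits did not rise. Ndufab1, the mitochondrial acyl carrier protein that also serves fatty acid synthesis, had 13.4 and 11.4 CPM in the adult, 11.5 and 14 in the PND8 Ki67-negative, 11.6 and 10.4 in the PND8 Ki67-positive, 8.22 and 9.75 in the repopulating Ki67-negative and 10.8 and 13.5 in the repopulating Ki67-positive libraries. Its differences from adult were 0.05 ± 0.22, -0.17 ± 0.22, -0.47 ± 0.23 and -0.04 ± 0.22, with no call. RefSeq names a pseudogene of Ndufab1, so its level is uncertain. Ndufb4, chosen for its promoter as described next, had 3.01 and 3.79 CPM in the adult, 3.59 and 3.58 in the PND8 Ki67-negative, 2.75 and 2.43 in the PND8 Ki67-positive, 2.19 and 1.83 in the repopulating Ki67-negative and 3.47 and 1.73 in the repopulating Ki67-positive libraries. Its differences were 0.08 ± 0.40, -0.39 ± 0.41, -0.74 ± 0.43 and -0.36 ± 0.42, with no call.

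NRF1 is a transcription factor known for sites at many respiratory chain genes, and matches to its consensus were searched on both strands in RefSeq windows of 300 bases, from 250 before to 50 after the start. Windows were found for 75 of the 94 genes, 72 of them at the same start as in the count table. A match was in 18 of the 75 (24.0%), against 7.0% of all 16381 windows and 11.1% of the windows of genes tested in the RNA. Sdha and Ndufb4 held the most, 3 each, and are shown for that contrast, since Sdha rose in 3 of the 4 comparisons and Ndufb4 did not pass the test. Capitals mark NRF1 letters and, in Ndufb4, also a match to SP1 (GGGCGG, here on the other strand) and 1 to the estrogen-related receptor letters TNAAGGTCA. The windows are the 250 bases before the start in GRCm38.p6, Sdha at chr13:74350241-74350490 and Ndufb4 at chr16:37654369-37654618, both on the minus strand.
Sdha: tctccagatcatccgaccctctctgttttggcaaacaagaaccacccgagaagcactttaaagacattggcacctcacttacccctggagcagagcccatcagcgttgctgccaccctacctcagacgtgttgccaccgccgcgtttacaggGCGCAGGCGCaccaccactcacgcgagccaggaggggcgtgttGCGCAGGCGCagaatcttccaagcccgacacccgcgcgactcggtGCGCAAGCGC
Ndufb4: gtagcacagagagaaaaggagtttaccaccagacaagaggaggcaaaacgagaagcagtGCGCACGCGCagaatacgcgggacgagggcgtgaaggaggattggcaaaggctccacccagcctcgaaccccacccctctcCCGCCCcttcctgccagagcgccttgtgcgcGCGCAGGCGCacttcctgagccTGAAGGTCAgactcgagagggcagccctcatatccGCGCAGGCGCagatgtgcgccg
The first base of the NRF1 letters lay 98, 55 and 10 bases before the start of Sdha and 191, 79 and 22 bases before that of Ndufb4. Over the tested genes with a window, the 18 with NRF1 letters had median log2 fold changes of 0.70, 0.73, 0.44 and 0.81 and the 54 without had 0.62, 0.70, 0.48 and 0.77. SP1 letters were in 34 of the 75 windows (45.3%), against 65.2% of the windows of tested genes. Those of YY1, another factor with sites at such genes, were in 5 (6.7%, against 2.3%) and those of the estrogen-related receptors in 3 (4.0%, against 0.7%). The ETS factor letters CCGGAAGT were in 5 (6.7%, against 8.8%) and the E-box letters CACGTG in 5 (6.7%, against 10.2%). TATA box letters (TATAAA) were in 8 (10.7%, against 6.8%). A match of letters is no binding site.

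The assembly factors, which help build complex I and are not part of it, included the 2 called falls. Ndufaf4 (chr4:24898083-24905001, plus strand, mm10) was the one gene of the 87 that fell in all 4 comparisons. Its promoter is shown as that of the gene that moved against the rest (chr4:24897833-24898082, GRCm38.p6, RefSeq). Capitals mark NRF1 letters starting 113 bases before the start and a pair of overlapping SP1 matches.
Ndufaf4: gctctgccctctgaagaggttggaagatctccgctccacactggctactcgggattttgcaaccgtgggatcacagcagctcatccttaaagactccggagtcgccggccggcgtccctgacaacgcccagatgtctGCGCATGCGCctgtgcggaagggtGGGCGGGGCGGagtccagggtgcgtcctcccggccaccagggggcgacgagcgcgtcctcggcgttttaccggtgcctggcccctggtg
It had 29.6 and 30.9 CPM in the adult, 20.3 and 20.8 in the PND8 Ki67-negative, 19.7 and 21.5 in the PND8 Ki67-positive, 12.7 and 13.6 in the repopulating Ki67-negative and 9.48 and 13.4 in the repopulating Ki67-positive libraries. The adult libraries were highest, both PND8 groups lay between, and the 4 repopulating libraries were lowest, with no overlap between these 3 sets. The log2 fold changes were -0.56 ± 0.17 (adjusted p = 0.0162), -0.55 ± 0.17 (adjusted p = 0.0155), -1.21 ± 0.18 (adjusted p = 0.000155) and -1.41 ± 0.18 (adjusted p = 3.47e-05). Ndufaf7, a mitochondrial methyltransferase, had 46.7 and 42 CPM in the adult, 25.6 and 29.9 in the PND8 Ki67-negative, 24.5 and 29.2 in the PND8 Ki67-positive, 37.2 and 40.2 in the repopulating Ki67-negative and 37 and 38.1 in the repopulating Ki67-positive libraries. It fell at PND8, with log2 fold changes of -0.67 ± 0.14 (adjusted p = 0.00133) and -0.73 ± 0.14 (adjusted p = 0.000702), while its differences in repopulating cells, -0.20 ± 0.13 and -0.24 ± 0.14, were not called. Ndufaf7 starts 65 bases from the oppositely oriented Cebpz. The other 6 factors passed no threshold against adult, with log2 fold changes from -0.42 to 0.79. Ndufaf2, which acts late in assembly, had 4.40 and 3.42 CPM in the adult, 4.08 and 7.98 in the PND8 Ki67-negative, 4.08 and 4.16 in the PND8 Ki67-positive, 5.10 and 4.72 in the repopulating Ki67-negative and 6.01 and 4.75 in the repopulating Ki67-positive libraries.

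In complex II, which is also an enzyme of the tricarboxylic acid cycle, the rises were small. Sdhd and Sdhc are the membrane anchors that bind ubiquinone. Sdhd had 59 and 52.1 CPM in the adult, 82.1 and 93.4 in the PND8 Ki67-negative, 77.9 and 86.8 in the PND8 Ki67-positive, 70.9 and 70.1 in the repopulating Ki67-negative and 85 and 81.8 in the repopulating Ki67-positive libraries, with log2 fold changes of 0.66 ± 0.11, 0.57 ± 0.11, 0.34 ± 0.11 and 0.59 ± 0.11 and adjusted p-values of 0.000264, 0.000759, 0.0238 and 0.000699. Sdhc had 59.3 and 59.9 CPM in the adult, 83.2 and 88.9 in the PND8 Ki67-negative, 81.7 and 91.5 in the PND8 Ki67-positive, 64.8 and 59.1 in the repopulating Ki67-negative and 70.2 and 75.4 in the repopulating Ki67-positive libraries, and its changes were 0.53 ± 0.10 (adjusted p = 0.000958), 0.54 ± 0.10 (adjusted p = 0.000748), 0.06 ± 0.10 (adjusted p = 0.689) and 0.29 ± 0.10 (adjusted p = 0.0374). Its repopulating Ki67-negative libraries overlapped the adult ones, and those of the other 3 groups did not. Sdha, the flavoprotein that oxidises succinate, had 153 and 154 CPM in the adult, 198 and 196 in the PND8 Ki67-negative, 200.4 and 209 in the PND8 Ki67-positive, 175 and 174 in the repopulating Ki67-negative and 186 and 213 in the repopulating Ki67-positive libraries. It rose in 3 groups, and the changes were 0.36 ± 0.08 (adjusted p = 0.00342), 0.41 ± 0.08 (adjusted p = 0.00116), 0.18 ± 0.08 (adjusted p = 0.107) and 0.38 ± 0.08 (adjusted p = 0.00269). Sdhb, the iron-sulfur subunit, had 51.6 and 55.7 CPM in the adult, 55.1 and 65.4 in the PND8 Ki67-negative, 66.7 and 75.2 in the PND8 Ki67-positive, 64.2 and 68.7 in the repopulating Ki67-negative and 76 and 76.6 in the repopulating Ki67-positive libraries. Its values in PND8 Ki67-negative cells overlapped the adult ones, and its changes were 0.17 ± 0.11 (adjusted p = 0.241), 0.40 ± 0.11 (adjusted p = 0.01), 0.31 ± 0.12 (adjusted p = 0.0491) and 0.51 ± 0.11 (adjusted p = 0.00284). With the length trend removed, the 3 calls of Sdhb were lost (0.15, 0.14 and 0.21), as were those of Sdhc in repopulating Ki67-positive (0.04) and Sdhd in repopulating Ki67-negative cells (0.24). In repopulating Ki67-negative cells 1 complex II gene, Sdha, was then called higher, which it was not in the main fit.

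In complex III the small subunits Uqcrq, Uqcrh and Uqcr11 rose in all 4 comparisons. Uqcrq had 16.5 and 15.3 CPM in the adult, 29.9 and 41 in the PND8 Ki67-negative, 40.4 and 40.9 in the PND8 Ki67-positive, 31.3 and 40.4 in the repopulating Ki67-negative and 37.6 and 44 in the repopulating Ki67-positive libraries, and Uqcr11 had 8.44 and 9.41 CPM in the adult, 11.5 and 20.2 in the PND8 Ki67-negative, 22.5 and 20.8 in the PND8 Ki67-positive, 14.5 and 19 in the repopulating Ki67-negative and 20.2 and 21 in the repopulating Ki67-positive libraries. Uqcrh, the hinge protein that aids the docking of cytochrome c1 and cytochrome c, had 19.3 and 22.6 CPM in the adult, 42 and 46.6 in the PND8 Ki67-negative, 39.8 and 43 in the PND8 Ki67-positive, 38.6 and 35.7 in the repopulating Ki67-negative and 40.2 and 40.7 in the repopulating Ki67-positive libraries. The log2 fold changes of Uqcrq were 1.16 ± 0.18 (adjusted p = 0.000169), 1.35 ± 0.18 (adjusted p = 3.85e-05), 1.16 ± 0.18 (adjusted p = 0.000242) and 1.36 ± 0.18 (adjusted p = 4.67e-05). The transcript of Uqcrq has 1521 bases, that of Uqcrh 540 and that of Uqcr11 431. Uqcrh rose by 1.08 ± 0.13, 0.98 ± 0.13, 0.83 ± 0.13 and 0.95 ± 0.13 and Uqcr11 by 0.84 ± 0.25, 1.28 ± 0.25, 0.90 ± 0.25 and 1.21 ± 0.25, all called. Uqcr11 was not called in the Ki67-negative groups with the length trend removed (0.30 and 0.48). RefSeq names 2 pseudogenes of Uqcrh, so its level is uncertain.

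Uqcrb, another small subunit (named after its values were seen), rose in PND8 Ki67-positive and repopulating Ki67-negative cells (0.54 and 0.51) and differed by 0.40 and 0.43 in the others, not called. Uqcrc1 and Uqcrfs1 rose in all 4 comparisons. Uqcrc1, a core protein, had 94 and 105 CPM in the adult, 118 and 148 in the PND8 Ki67-negative, 151 and 161 in the PND8 Ki67-positive, 119 and 129.5 in the repopulating Ki67-negative and 136 and 156 in the repopulating Ki67-positive libraries, with changes of 0.42 ± 0.12 (adjusted p = 0.00969), 0.65 ± 0.12 (adjusted p = 0.000447), 0.32 ± 0.12 (adjusted p = 0.0441) and 0.55 ± 0.12 (adjusted p = 0.00172). Uqcrfs1, the Rieske iron-sulfur protein that hands electrons to cytochrome c1, had 47 and 47 CPM in the adult, 64.5 and 71.9 in the PND8 Ki67-negative, 67.5 and 68.7 in the PND8 Ki67-positive, 57.7 and 73.3 in the repopulating Ki67-negative and 70.3 and 74.8 in the repopulating Ki67-positive libraries, with changes of 0.54 ± 0.12 (adjusted p = 0.00275), 0.53 ± 0.12 (adjusted p = 0.00264), 0.47 ± 0.12 (adjusted p = 0.00833) and 0.63 ± 0.12 (adjusted p = 0.00104). In both genes all 8 libraries of the other groups exceeded both adult libraries.

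In complex IV, Cox4i1 and Cox6c rose in all 4 comparisons. Cox4i1, the main isoform of the largest nuclear subunit, had 46.1 and 48.8 CPM in the adult, 98.3 and 105 in the PND8 Ki67-negative, 104 and 107 in the PND8 Ki67-positive, 89.7 and 109.9 in the repopulating Ki67-negative and 104 and 116 in the repopulating Ki67-positive libraries. Its log2 fold changes were 1.10 ± 0.11 (adjusted p = 4.72e-06), 1.16 ± 0.11 (adjusted p = 2.42e-06), 1.07 ± 0.11 (adjusted p = 8.29e-06) and 1.21 ± 0.11 (adjusted p = 1.97e-06). Every library of the other 4 groups was above both adult libraries. Cox6c, a small subunit in the membrane, had 12 and 11.4 CPM in the adult, 24.5 and 31.2 in the PND8 Ki67-negative, 33 and 29.1 in the PND8 Ki67-positive, 27 and 23.6 in the repopulating Ki67-negative and 28.9 and 26.2 in the repopulating Ki67-positive libraries, with changes of 1.26 ± 0.17 (adjusted p = 6.01e-05), 1.41 ± 0.17 (adjusted p = 1.75e-05), 1.12 ± 0.17 (adjusted p = 0.00024) and 1.24 ± 0.17 (adjusted p = 7.23e-05). Cox5a, a subunit on the matrix side, had 24.4 and 27.9 CPM in the adult, 45.9 and 57 in the PND8 Ki67-negative, 49.5 and 57.3 in the PND8 Ki67-positive, 41.6 and 48.8 in the repopulating Ki67-negative and 45.2 and 49.8 in the repopulating Ki67-positive libraries and rose by 0.98 ± 0.15, 1.03 ± 0.15, 0.79 ± 0.15 and 0.86 ± 0.15. Ndufa4 had 23.9 and 23.3 CPM in the adult, 36.4 and 42.8 in the PND8 Ki67-negative, 38.6 and 42.9 in the PND8 Ki67-positive, 35.3 and 44.5 in the repopulating Ki67-negative and 44.9 and 51 in the repopulating Ki67-positive libraries and rose by 0.75 ± 0.15, 0.78 ± 0.15, 0.75 ± 0.15 and 1.02 ± 0.15, all 4 called for both genes. Ndufa4 was not called at PND8 with the length trend removed (0.25 and 0.26).

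Complex IV has several subunits with isoforms that differ between tissues, and the same isoforms led in all 5 groups, those known from most tissues. Cox6a1 had 37.9 and 39.8 CPM in the adult, 61.3 and 75.6 in the PND8 Ki67-negative, 70.3 and 74.9 in the PND8 Ki67-positive, 63.3 and 73.3 in the repopulating Ki67-negative and 77.1 and 82.2 in the repopulating Ki67-positive libraries. Cox6b1 had 28.1 and 29.6 CPM in the adult, 48 and 57.4 in the PND8 Ki67-negative, 53.6 and 55.9 in the PND8 Ki67-positive, 42.9 and 45.7 in the repopulating Ki67-negative and 53.9 and 58.4 in the repopulating Ki67-positive libraries. Cox8a had 36.1 and 40.0 CPM in the adult, 56.6 and 59.7 in the PND8 Ki67-negative, 59 and 62 in the PND8 Ki67-positive, 54.9 and 61.3 in the repopulating Ki67-negative and 62.7 and 71.8 in the repopulating Ki67-positive libraries. All 3 were lowest in both adult libraries and rose in all 4 comparisons, by 0.82 ± 0.12, 0.90 ± 0.12, 0.81 ± 0.13 and 1.03 ± 0.12 for Cox6a1, 0.87 ± 0.12, 0.93 ± 0.12, 0.62 ± 0.12 and 0.96 ± 0.12 for Cox6b1 and 0.61 ± 0.12, 0.67 ± 0.12, 0.61 ± 0.12 and 0.82 ± 0.12 for Cox8a. With the length trend removed, Cox6b1 was not called in repopulating Ki67-negative cells (0.22) and Cox8a in none of the 4 (0.15, 0.17, 0.24 and 0.26). Cox7a2 had 20.9 and 17.5 CPM in the adult, 25.7 and 33.5 in the PND8 Ki67-negative, 28.3 and 34.7 in the PND8 Ki67-positive, 25.4 and 27.6 in the repopulating Ki67-negative and 31.9 and 35.6 in the repopulating Ki67-positive libraries. Cox7b had 19.1 and 22.7 CPM in the adult, 29.6 and 37.6 in the PND8 Ki67-negative, 36 and 38.6 in the PND8 Ki67-positive, 27.2 and 41.9 in the repopulating Ki67-negative and 33.3 and 45.3 in the repopulating Ki67-positive libraries. Cox7a2l had 35.7 and 37.9 CPM in the adult, 65.7 and 66.9 in the PND8 Ki67-negative, 57.5 and 58.5 in the PND8 Ki67-positive, 57.4 and 59.9 in the repopulating Ki67-negative and 67.4 and 62 in the repopulating Ki67-positive libraries. Cox7a2 rose in 3 groups, by 0.63, 0.71 and 0.81, and its difference in repopulating Ki67-negative cells was 0.46 ± 0.18 (adjusted p = 0.0533). None of these Cox7a2 calls was left with the length trend removed (0.24, 0.32 and 0.36). Cox7b and Cox7a2l rose in all 4, and with the trend removed Cox7b was not called in PND8 Ki67-negative cells (0.39).

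The isoforms known from other tissues were at 0 or low, at most 3.17 CPM in any library. Of the heart and skeletal muscle forms, Cox6a2 had 2.66 and 0.978 CPM in the adult, 1.24 and 2.94 in the PND8 Ki67-negative, 2.53 and 1.62 in the PND8 Ki67-positive, 1.87 and 1.83 in the repopulating Ki67-negative and 1.73 and 3.17 in the repopulating Ki67-positive libraries. Cox7a1 had 1.39 and 0.244 CPM in the adult, 1.24 and 0.459 in the PND8 Ki67-negative, 0.661 and 0.231 in the PND8 Ki67-positive, 0.104 and 0.610 in the repopulating Ki67-negative and 0.463 and 2.16 in the repopulating Ki67-positive libraries. Cox8b had 0.35 CPM in adult replicate 1 and 0 in the other 9 libraries. Of the testis forms, Cox7b2 and Cox8c had 0 counts in all 10 libraries, and Cox6b2 had 1.04 and 0.489 CPM in the adult, 1.61 and 0.826 in the PND8 Ki67-negative, 1.87 and 2.43 in the PND8 Ki67-positive, 0.729 and 0.914 in the repopulating Ki67-negative and 2.31 and 1.73 in the repopulating Ki67-positive libraries. Cox4i2, known from lung and from low oxygen, was at 0 in both adult libraries and at most 1.04 CPM elsewhere, and Ndufa4l2, known as induced by low oxygen, was at 0 in 9 libraries and 0.14 CPM in the other. No difference of Cox6a2, Cox6b2 or Cox7a1 was called in any of the 9 comparisons. A count of 0 allows up to 3 counts, which is 0.292 to 0.437 CPM at these depths, so lower levels could not be seen. That limit covers counting error only.

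**Figure D3:**
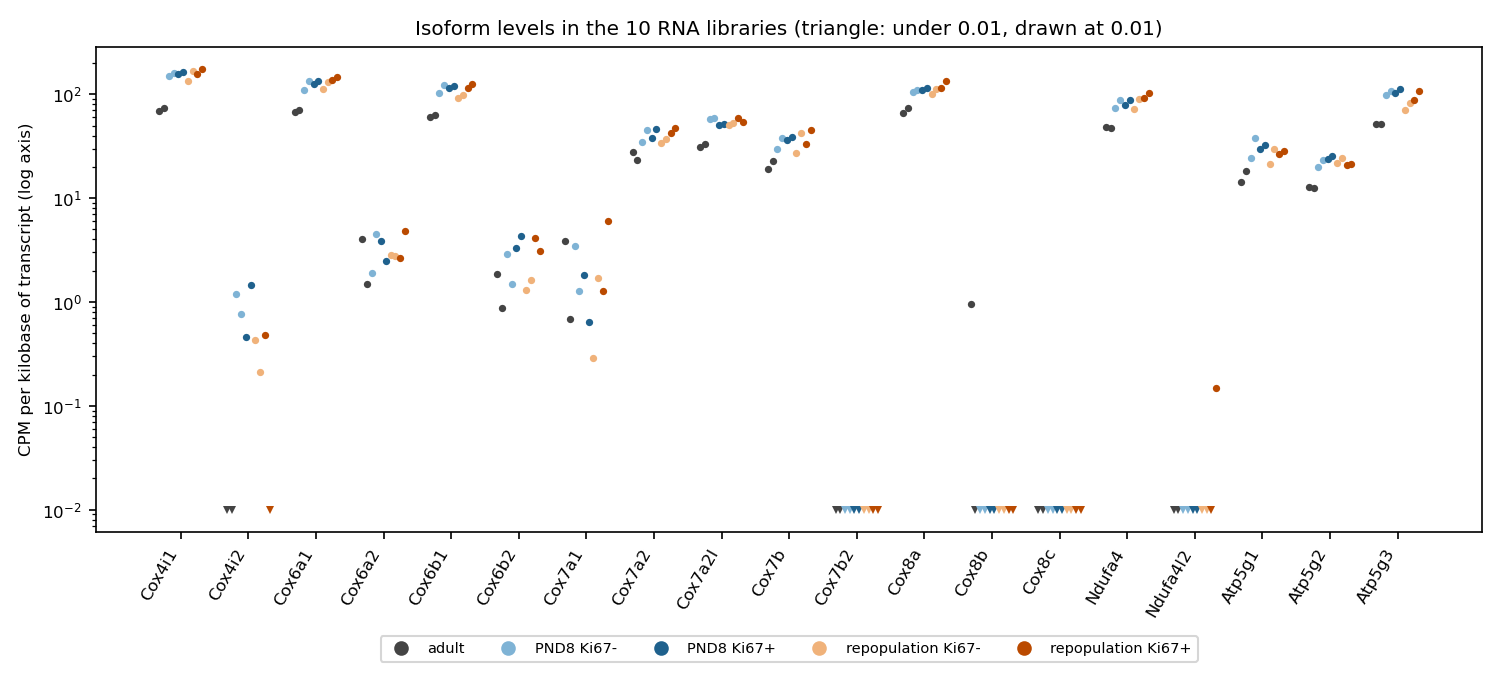
CPM per kilobase of transcript (log axis) of 19 isoform genes in each of the 10 RNA libraries, coloured by group; triangles at 0.01 mark libraries with 0 counts. Cox4i1, Cox6a1 and Cox8a stand far above Cox4i2, Cox6a2, Cox8b and Cox8c in every library.

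Nearly all ATP synthase genes rose. Atp5a1 and Atp5b encode the alpha and beta subunits of its catalytic head. Atp5a1 had 216 and 217 CPM in the adult, 290.0 and 288 in the PND8 Ki67-negative, 322 and 343 in the PND8 Ki67-positive, 259.6 and 324 in the repopulating Ki67-negative and 315 and 379 in the repopulating Ki67-positive libraries, with changes of 0.42 ± 0.11 (adjusted p = 0.00739), 0.62 ± 0.11 (adjusted p = 0.000459), 0.43 ± 0.11 (adjusted p = 0.00795) and 0.68 ± 0.11 (adjusted p = 0.000253). Atp5b had 200.4 and 204 CPM in the adult, 268 and 263 in the PND8 Ki67-negative, 299 and 320.3 in the PND8 Ki67-positive, 237 and 289.5 in the repopulating Ki67-negative and 277 and 337 in the repopulating Ki67-positive libraries, with changes of 0.39 ± 0.11 (adjusted p = 0.00969), 0.62 ± 0.11 (adjusted p = 0.000413), 0.38 ± 0.11 (adjusted p = 0.014) and 0.60 ± 0.11 (adjusted p = 0.000567). Both were lowest in the 2 adult libraries, with no overlap.

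Small subunits rose as well. Atp5e, the epsilon subunit of the central stalk, had 16.5 and 16.9 CPM in the adult, 31.7 and 45.3 in the PND8 Ki67-negative, 39.8 and 41.6 in the PND8 Ki67-positive, 35.9 and 43.6 in the repopulating Ki67-negative and 42.4 and 48.8 in the repopulating Ki67-positive libraries, and its changes were 1.21 ± 0.18 (adjusted p = 0.000101), 1.28 ± 0.18 (adjusted p = 5.29e-05), 1.24 ± 0.18 (adjusted p = 0.000114) and 1.45 ± 0.18 (adjusted p = 2.19e-05). Atp5mpl, a small membrane protein, had 9.83 and 14.1 CPM in the adult, 21.7 and 29.6 in the PND8 Ki67-negative, 28.2 and 27.4 in the PND8 Ki67-positive, 21.4 and 23.3 in the repopulating Ki67-negative and 28.5 and 29.8 in the repopulating Ki67-positive libraries and rose by 1.11 ± 0.20, 1.22 ± 0.20, 0.90 ± 0.20 and 1.29 ± 0.20, all called. Atp5k, the subunit e that takes part in joining synthases into dimers, had 5.44 and 6.11 CPM in the adult, 7.55 and 13.9 in the PND8 Ki67-negative, 15.1 and 16.1 in the PND8 Ki67-positive, 9.37 and 10.2 in the repopulating Ki67-negative and 15.4 and 18.7 in the repopulating Ki67-positive libraries, and its changes were 0.92 ± 0.28 (adjusted p = 0.0167), 1.43 ± 0.28 (adjusted p = 0.000816), 0.76 ± 0.29 (adjusted p = 0.052) and 1.56 ± 0.28 (adjusted p = 0.000497). RefSeq names 4 pseudogenes of Atp5k, so its reads may be shared. With the length trend removed, Atp5k was called in the Ki67-positive groups (0.80 and 0.86) and not in PND8 Ki67-negative cells (0.30).

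The proton-carrying ring is made of a c subunit that 3 genes encode, with the same mature protein. Atp5g3 had 37.4 and 37.1 CPM in the adult, 70.0 and 76.6 in the PND8 Ki67-negative, 74.1 and 81.1 in the PND8 Ki67-positive, 50.3 and 58.8 in the repopulating Ki67-negative and 62.6 and 76.4 in the repopulating Ki67-positive libraries. Atp5g1 had 11.3 and 14.4 CPM in the adult, 19.4 and 30.0 in the PND8 Ki67-negative, 23.4 and 25.5 in the PND8 Ki67-positive, 16.8 and 23.5 in the repopulating Ki67-negative and 20.9 and 22.3 in the repopulating Ki67-positive libraries. Atp5g2 had 8.21 and 7.94 CPM in the adult, 12.9 and 15 in the PND8 Ki67-negative, 15.2 and 16.2 in the PND8 Ki67-positive, 14.1 and 15.5 in the repopulating Ki67-negative and 13.4 and 13.7 in the repopulating Ki67-positive libraries. Per kilobase of transcript Atp5g3 was highest of the 3 in every group, at 52.0 CPM per kilobase in adult against 16.3 for Atp5g1 and 12.6 for Atp5g2, and at 102, 108, 76.1 and 96.9 in the other groups. All 3 rose in all 4 comparisons, by 0.98 ± 0.13, 1.06 ± 0.13, 0.55 ± 0.13 and 0.90 ± 0.13 for Atp5g3, 0.95 ± 0.23, 0.93 ± 0.23, 0.63 ± 0.23 and 0.75 ± 0.23 for Atp5g1 and 0.79 ± 0.19, 0.96 ± 0.19, 0.87 ± 0.20 and 0.74 ± 0.20 for Atp5g2. With the length trend removed, the repopulating calls of Atp5g1 (0.36 and 0.32), those of Atp5g2 in PND8 Ki67-negative and repopulating Ki67-positive cells (0.36 and 0.24) and that of Atp5g3 in repopulating Ki67-negative cells (0.25) were lost.

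Per kilobase of transcript, the order of the 87 genes was led by the catalytic head in adult microglia. Atp5b was first at a mean of 108 CPM per kilobase, Atp5a1 second at 89.5 and Cox4i1 the third at 71.7, followed by Cox8a at 70.3 and Cox6a1 at 69.2. In the other groups Cox4i1 had 154, 160, 151 and 166 CPM per kilobase and Atp5b had 142, 166, 141 and 164. The replicates of these 2 genes overlapped in every group but adult and PND8 Ki67-negative. In adult the mean of Cox8a lay within the replicates of Cox4i1. Atp5e moved from rank 24 in adult to ranks 9, 9, 6 and 7. Median levels over the tested subunits in adult replicates 1 and 2 were 49.5 and 51.6 CPM per kilobase for complex II, 40.2 and 36.1 for the ATP synthase, 31.0 and 33.0 for complex III, 28.9 and 30.0 for complex IV, 22.2 and 22.1 for complex I and 7.70 and 8.51 for the assembly factors.

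Ki67-positive cells were then compared with Ki67-negative cells of the same age and treatment. None of the 87 genes was called by edgeR at PND8 or in repopulating mice, but this changed with terms for shared numbers or codes: with the replicate block 3 were higher in repopulating cells, and a header-code term gave 2 at PND8 and 11 in repopulating cells. At PND8, where 5.90% of all tested genes were called (3.15% lower in Ki67-positive cells), 68 of the 87 had a positive log2 fold change, the median was 0.09 and 0 reached an unadjusted p under 0.05; DESeq2 also called 0. In repopulating cells, where 2.74% of all genes were called, 82 of the 87 were positive, the median was 0.27 and 30 reached an unadjusted p under 0.05; DESeq2 called 1. There, 63 of the 87 had both Ki67-positive libraries above both Ki67-negative ones, which 23.9% of all tested genes did, and at PND8 20 of the 87 did, against 19.1%. By complex, that unadjusted threshold was reached in repopulating cells by 16 of 36 complex I genes, whose median was 0.31. It was also reached by 3 of 4 genes of complex II, 2 of 8 of complex III and 1 of 15 of complex IV. Of the ATP synthase genes 6 of 16 reached it, and of the assembly factors 2 of 8. The medians over all tested genes were -0.027 at PND8 and -0.004 in repopulating cells. Shares of all tested genes at that unadjusted threshold are not given here, nor those under the replicate block, the header-code term or DESeq2. These counts therefore cannot be read against all genes.

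The PND8 contrast depended on which Ki67-negative library was used. PND8 Ki67-negative replicate 1 had a median deviation of 0.00 (log2, from each gene's mean over the libraries) and replicate 2 had 0.26, while the Ki67-positive replicates had 0.17 and 0.24. Without replicate 1 the median difference became -0.04, and without replicate 2 it became 0.24 with 3 genes called. Replicates with the same number carried the same header code at PND8, and within these pairs the Ki67-positive library was the higher for 73 of 87 genes in replicate 1 (median 0.19) and 40 of 87 in replicate 2 (median -0.01). The astrocyte markers summed to 84.5 and 53.6 CPM in the Ki67-negative and Ki67-positive libraries of replicate 1 and to 429.9 and 373 in those of replicate 2, and their part in the result was not tested. In repopulating cells the pairs gave 80 and 79 of 87, with medians of 0.28 and 0.24. The difference between the 2 contrasts, tested as an interaction, was called for 0 of 87 genes, as for 0% of all tested genes, where 3 of the 87 had an unadjusted p under 0.05 and the median was 0.22. That median was -0.01 without PND8 Ki67-negative replicate 2.

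Repopulating cells were also compared with PND8 cells of the same Ki67 status. In Ki67-negative cells, where 36.6% of all tested genes were called, 6 of the 87 were lower and 1 higher in repopulating mice, with a median of -0.17 against -0.04 over all genes. The 6 were Ndufaf4 at -0.65 ± 0.18 (adjusted p = 0.0129), Ndufs4 at -0.54 ± 0.17 (adjusted p = 0.026), Sdhc at -0.47 ± 0.10 (adjusted p = 0.00305), Atp5g3 at -0.43 ± 0.12 (adjusted p = 0.0146), Ndufv3 at -0.35 ± 0.12 (adjusted p = 0.0373) and Sdhd at -0.32 ± 0.11 (adjusted p = 0.033). Ndufaf7 was higher, by 0.47 ± 0.14 (adjusted p = 0.0166). Ndufs4, an accessory subunit of the NADH-oxidising arm, had 17.2 and 17.6 CPM in the adult, 21.9 and 30.2 in the PND8 Ki67-negative, 26.8 and 28.8 in the PND8 Ki67-positive, 18.8 and 17.1 in the repopulating Ki67-negative and 23.9 and 25.8 in the repopulating Ki67-positive libraries. Its repopulating Ki67-negative libraries overlapped the adult ones. Ndufv3, another subunit of that arm, had 26.3 and 29.4 CPM in the adult, 44.2 and 50.0 in the PND8 Ki67-negative, 47.6 and 42.4 in the PND8 Ki67-positive, 37.4 and 36.6 in the repopulating Ki67-negative and 43.8 and 45.1 in the repopulating Ki67-positive libraries. The count of 7 became 16 without PND8 Ki67-negative replicate 1, 4 without replicate 2 of that group and 3 without either repopulating Ki67-negative library. It was 26, all lower, with a term for the header code. The shares of all tested genes called in these other fits are not given here, so the counts cannot be read against all genes.

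In Ki67-positive cells, where 30.9% of all genes were called, 2 of the 87 were: Ndufaf4 was lower, at -0.86 ± 0.18 (adjusted p = 0.00331), and Ndufaf7 higher, at 0.49 ± 0.14 (adjusted p = 0.0174). The median was 0.06. PND8 replicate 2 and repopulation replicate 1 had the same header code, and between these the median difference was -0.04 in Ki67-positive cells (35 of 87 higher in repopulation) and -0.33 in Ki67-negative cells (3 of 87 higher). The other 85 genes were not called in Ki67-positive cells, which does not show that they were equal.

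Respiratory chain transcripts are short, and in these libraries the difference from adult followed transcript length among other genes too. The 87 genes had a median length of 753 bases against 2972 for all tested genes, and 63.2% were under 1000 bases against 6.4%. In PND8 Ki67-positive cells the median log2 fold change of the other tested genes was 0.56 under 600 bases, 0.28 from 800 to under 1000, -0.01 from 2000 to under 3000 and -0.13 from 5000. These others leave out the cytosolic ribosomal protein genes, whose median length is 727 bases. Of those tested, 70 of 74 rose in this comparison, and medians that include them were not computed. The respiratory chain genes had medians of 0.91, 0.81 and 0.38 in the first 3 of these classes, which held 30, 7 and 7 of them, above the others in each. The same order held in repopulating Ki67-negative cells, with 0.75, 0.66 and 0.18 for the respiratory chain genes and 0.36, 0.21 and -0.03 for the others.

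**Figure D4:**
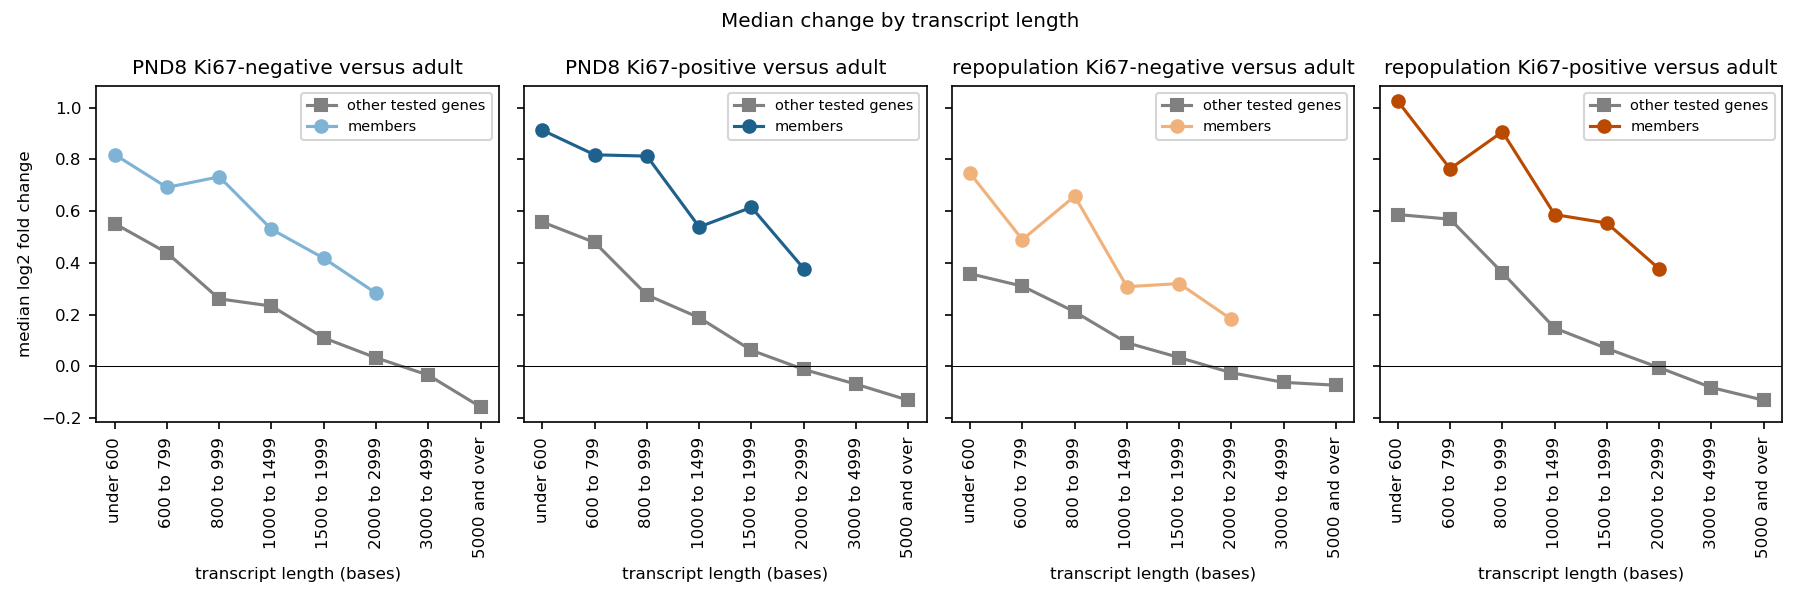
Median log2 fold change against adult by class of transcript length in bases, for the respiratory chain genes (colour, classes with at least 2) and the other tested genes (grey), with a panel per comparison. The grey set leaves out the cytosolic ribosomal protein genes. Both sets have higher medians for short than for long transcripts, and the respiratory chain genes stay above the others in each class plotted, for example 0.91 against 0.56 under 600 bases in PND8 Ki67-positive cells.

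Removing the length trend also removes any true difference shared by short transcripts. With it removed, fewer genes were called: 44 higher and 2 lower, 52 and 2, 32 and 2, and 48 and 1. Shares of all tested genes called in that fit are not given here. In repopulating Ki67-negative cells 1 complex I subunit was then called lower, where the main fit called 0. Of the main calls, 46 of 60, 54 of 69, 32 of 50 and 48 of 65 were kept. Ndufa1 kept log2 fold changes of 1.07, 1.08, 1.48 and 1.43, Ndufa13 1.07, 1.15, 1.03 and 1.21, and Uqcrq 1.00, 1.25, 1.11 and 1.22, all called. Ndufaf4 kept -0.51, -0.47, -1.14 and -1.33, all called. Ndufs4 lost its call in repopulating Ki67-positive cells (0.38). Ndufb10, Ndufc2 (2 calls) and Cox7c, named because the sign of a call turned, came to -0.01, -0.04 and 0.00, and -0.12. The difference between Ki67-positive and Ki67-negative repopulating cells had a median of 0.14 in place of 0.27.

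Per the file headers, the counts were made with a cap, at most 3 reads at any position, which would limit short abundant transcripts most. The most heavily covered of the 94 genes was Cox4i1, with 1.74 reads per base of transcript in its fullest library. Only 9 of the 94 exceeded 1 read per base and 0 reached 3; the median of the fullest libraries was 0.486. Cytosolic ribosomal protein genes, of like length, had a median of 0.894. Over the whole set of counted genes, 26 exceeded 3 reads per base, up to 6.35 for Cst3. The stated cap therefore did not bound every count, and the reason was not tested. Correcting the counts for the share expected to be lost left 58, 69, 50 and 63 of the 87 called against adult. That correction assumes reads spread evenly along the transcript, and it left 33 genes uncorrected. A cap that acts more on the higher group would make a rise look smaller.

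Other genes of mitochondrial energy supply are read against all tested genes, of which 25.4%, 25.1%, 21.5% and 23.9% were called higher and 21.4%, 24.3%, 17.6% and 21.0% lower in the 4 comparisons. Of 14 tricarboxylic acid cycle genes, 9, 10, 3 and 6 rose and 0, 0, 1 and 1 fell. Fh1 (fumarase) rose by 0.67, 0.95, 0.43 and 0.68, and Idh2 rose at PND8 (0.60 and 0.69) and fell in repopulating cells (-0.48 and -0.41). Of 21 glycolysis and lactate transport genes, 9, 9, 11 and 11 rose and 1, 5, 2 and 2 fell. Pgk1, Pkm and Ldha, late enzymes of the pathway, rose in all 4, Pgk1 by 1.17, 1.36, 0.93 and 1.22. Of 78 mitochondrial ribosomal protein genes 18, 24, 9 and 19 rose and 0, 0, 8 and 3 fell, rises near or below the share over all genes in all but PND8 Ki67-positive cells. Their medians were 0.30, 0.33, -0.02 and 0.22, against 0.03, 0.00, -0.01 and -0.01 over all tested genes. Of 74 cytosolic ribosomal protein genes 71, 70, 70 and 72 rose and 1 fell in each, with medians of 0.66, 0.69, 0.71 and 0.81, as large as those of the respiratory chain.

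Genes that work beside each complex are read against the same shares. Of 8 partners of the ATP synthase, 5, 5, 3 and 4 rose. Atpif1, its inhibitor, rose by 1.08, 0.96, 0.92 and 1.14, and Slc25a4, an exchanger of ADP and ATP, rose by 0.87, 0.80, 0.81 and 0.94. Of 26 complex IV assembly genes 8, 8, 7 and 9 rose and 1, 1, 4 and 2 fell, not far from the share of all genes called higher. Cmc2 rose by 1.25, 1.48, 1.02 and 1.87, and the copper chaperone Cox17 rose in repopulating cells (0.71 and 1.15). Of 8 genes of cytochrome c and complex III assembly, 0, 2, 0 and 1 rose and 0, 0, 2 and 2 fell. Cycs, cytochrome c itself, was not called (0.26, 0.26, 0.10 and 0.12), Cyc1 rose in PND8 Ki67-positive cells (0.41), and Lyrm7, which helps insert the Rieske protein, fell in repopulating cells (-1.76 and -1.52). Of 10 complex I assembly genes outside the name rule, 1, 0, 0 and 0 rose and 0, 0, 0 and 1 fell. Among 4 complex II assembly genes, Sdhaf1 fell in repopulating cells (-1.09 and -1.08) and nothing else was called.

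Of 20 tested regulators of mitochondrial formation, 0, 0, 0 and 2 rose and 3, 4, 8 and 7 fell, at PND8 no more than the 21.4% and 24.3% of all genes called lower. Tfam, which packages and transcribes mitochondrial DNA, fell in repopulating cells (-0.48 and -0.41), with PND8 differences of -0.15 and -0.10 not called. Ppargc1b, a coactivator, fell in repopulating cells (-0.65 and -1.11), and so did Esrra, an estrogen-related receptor (-0.40 and -0.35), and Hif1a (-0.27 and -0.38). Ppargc1a was at 0 in 6 of the 10 libraries and at most 0.87 CPM. Myc was not called in any of the 4 (0.15, 0.36, -0.32 and -0.20).

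H3K4me3 and ATAC peaks lay at the start sites of most of the 94 genes in the libraries where these were measured, and Rpb2 peaks in all libraries at fewer. Peaks were the authors' calls in each library, and a gene was counted when a peak overlapped the 500 bases on either side of its start. An H3K4me3 peak was present in both adult libraries at 87 of the 94 genes, an ATAC peak in all 3 libraries at 84, an H3K27ac peak in all 12 libraries at 69 and an Rpb2 peak in all 3 libraries at 40. Among the 87 genes tested in the RNA, the counts were 86, 83, 68 and 40, and the shares of all tested genes were 89.2%, 84.4%, 63.4% and 44.6%. In the upper part of each H3K27ac list by score, 6 of the 87 had a peak in all 12 libraries, against 15.3% of all tested genes. The lists differed in length, from 19572 to 30539 peaks for H3K27ac and from 10544 to 31602 for Rpb2, so presence between groups moves with how much was called. Ndufb4c, Cox4i2, Cox6a2, Cox7b2, Cox8b, Cox8c and Ndufa4l2 had no peak in any of the 20 lists. Cox7a1 and Cox6b2, also low in the RNA, had a peak in 17 and 8 of the 20 lists, those of H3K4me3 and ATAC included. Atp5l, subunit g of the synthase, had 0.12 to 1.24 CPM of RNA and a peak at its start in 19 of the 20 lists, and RefSeq names 2 pseudogenes of it.

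**Figure D5:**
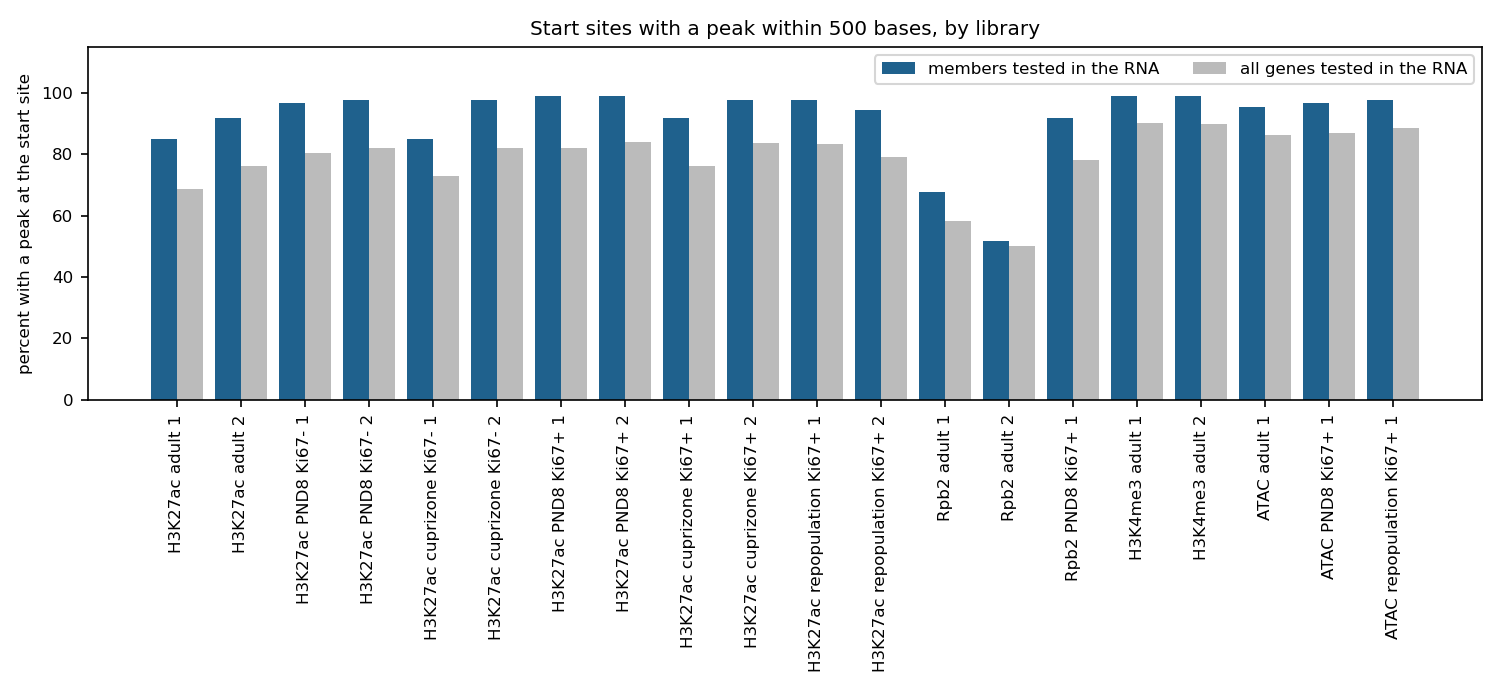
Percent of start sites with a peak within 500 bases in each of the 20 chromatin libraries, for the 87 respiratory chain genes tested in the RNA (blue) and all 12230 tested genes (grey). In both H3K4me3 libraries 98.9% of the respiratory chain genes have a peak, and the share is lowest in Rpb2 adult replicate 2, at 51.7% against 50.0% of all tested genes.

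Ndufa1 was the one gene of the 94 without an H3K27ac peak in both adult lists and with one in all 10 others (PND8, cuprizone and repopulation), a pattern seen at 97 of the 12230 tested genes (0.79%). The adult lists, of 19572 and 24903 peaks, were 2 of the 3 shortest of 12. Ndufa1 had H3K4me3 and ATAC peaks in all 5 of those libraries, adult ones included, and no Rpb2 peak in any of 3. Where called, its H3K27ac peak was weak, at the 0.2 to 42.2 percentile of the peak signals of its own list. Cox7a1, Ndufa5 and Ndufaf5 shared with it the absence in both adult lists and the presence in all 4 PND8 lists, which 3.83% of tested genes showed.

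Divergent starts were common in the set. Of the 94 genes, 25 (26.6%) had another gene starting within 1000 bases on the opposite strand and pointing away, against 7.6% of all genes in the table and 11.9% of tested genes. Ndufs1 and Eef1b2 start 9 bases apart, Ndufa7 and Rps28 10 bases, Ndufs3 and Kbtbd4 19 bases, and Sdhd and Timm8b 52 bases. Of 22 tested partners 5, 6, 6 and 6 rose and 2, 4, 5 and 3 fell against adult, near the shares of all tested genes called higher (25.4%, 25.1%, 21.5% and 23.9%), with medians of 0.12, 0.08, -0.07 and -0.05. A peak at such a start belongs to both genes.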

How the data were processed

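The submitters' processing notes name STAR 2.7.0f, Bowtie2 2.3.4.1, HOMER 4.11 and DESeq2 with the mm10 build. Per the file headers, the authors' raw read counts per gene came from HOMER over exons, 1 transcript per gene, with at most 3 reads per position; the strand setting is not given in the sources used here. The deposited TPM table was made the same way. Per the file headers, the authors' peaks were called per library with HOMER, with a normalized tag signal and a findPeaks score.

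Here counts of all 10 RNA libraries were fitted together in 5 groups with edgeR 4.0.16 (R 4.3.3; TMM, filterByExpr, quasi-likelihood test), and p-values were adjusted over 12230 genes within each of 9 comparisons. The labels call the 2 libraries of a group independent biological replicates. No libraries were identical. Genes named were the subunits fixed by list, those with isoforms, and per complex the largest called changes. Genes and lists were chosen with earlier results of these data known. Alternatives included DESeq2 1.42.0, limma 3.58.1 on log2(TPM + 1), other scalings, filters, a header-code term and leaving out each library. The test was tried on simulated counts first. The input libraries were not used.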

Additional observations from a re-analysis of the deposited data

How the results depend on the processing

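The median change against adult stayed positive under every alternative run, though 4 called rises turned sign under the length offset, and the counts called stayed within 1.5 times, but for repopulating Ki67-negative cells without 1 library. With each library left out in turn, the genes called numbered 48 to 70, 54 to 60, 30 to 43 and 52 to 58 in the 4 comparisons with adult, with medians of 0.448 to 0.794, 0.647 to 0.717, 0.368 to 0.532 and 0.689 to 0.772. A term for the header code gave medians of 0.828, 0.915 and 0.571 for the first 3, which test nothing, since no other library has the adult code and the value depends on the code taken as reference. The length offset, chosen after the data were seen, gave 0.300, 0.413, 0.249 and 0.387, and log2(TPM + 1) gave 0.642 for repopulating Ki67-positive cells. The shares of all tested genes called in the alternative RNA fits are not given in this section. Its counts of genes called therefore cannot be read against all genes.

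Between Ki67-positive and Ki67-negative cells, leaving out 1 library gave 0 to 3 genes and medians of -0.038 to 0.241 at PND8, and 0 genes and 0.195 to 0.356 in repopulating cells. The code term called 2 at PND8 and 11 in repopulating cells, where no filter called 5, the replicate block 3 and DESeq2 1, and the length offset gave a median of 0.14. The replicate numbers are not stated to pair samples. Same-numbered libraries correlated at 0.338 between the PND8 groups, 0.263 between the repopulating groups and -0.008 to 0.097 elsewhere, and the block lost 0 of 253 calls. For the interaction, medians ran from -0.01 to 0.343 and 0 genes were called without 1 library, and the length offset gave 0.066.

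Between repopulating and PND8 Ki67-negative cells the count ran from 3 to 16 and the median from -0.249 to 0.039 without 1 library. It was 12 with library sizes, 11 and 12 with log2(TPM + 1) and log2(TPM + 0.1), 26 with the code term, 2 with a fold of 1.2 required, 2 with those groups alone and 4 with DESeq2. The median was -0.284 with the code term and -0.052 with the length offset. In Ki67-positive cells the count ran from 0 to 2 and the median from -0.016 to 0.085. It was 5 with the code term, with a median of -0.101, and 1 with a fold of 1.2 required. The upper part of each peak list by score left 6 genes for H3K27ac, 43 for H3K4me3 and 22 for Rpb2. Of the 87 tested genes these were 6, 42 and 22, against 15.3%, 42.6% and 29.4% of all tested genes. For H3K27ac and Rpb2 that is a smaller share than over all tested genes. Without 1 library the Rpb2 count ran from 41 to 59.

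Of 2480 checks of 155 named results, 2249 kept side and direction, 207 lost the threshold, 9 gained it and 15 changed sign, none of the last called at first. The 2249 include 146 with the header-code term, which tests nothing in the comparisons with adult. Ndufab1 changed sign in PND8 Ki67-negative cells (-0.024 with the length offset, -0.067 without adult replicate 2, -0.131 without PND8 Ki67-negative replicate 2, against up to 0.178 without replicate 1), in PND8 Ki67-positive cells (0.134 and 0.139 with the TPM scales, 0.156 with the code term) and in repopulating Ki67-positive cells (0.106 with the code term, 0.09 without adult replicate 1, 0.107 without repopulating Ki67-positive replicate 1, down to -0.203 without replicate 2). Ndufs3 did with the length offset (-0.144, -0.126, -0.061 and -0.235) and without repopulating Ki67-positive replicate 2 (-0.002, against 0.229 without replicate 1), and Sdhb in PND8 Ki67-negative cells with the length offset (-0.102). The TPM values of Ndufab1 are for another transcript than its counts. The cause of these changes of sign was not tested. With 2 libraries a group, small changes could not be told from replicate spread.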
